A study of Mus musculus with 3 samples.

Results

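The cells described here are the suprabasal keratinocytes of mouse ear skin that carry the keratins Krt1 and Krt10, the cells of the spinous layer of the epidermis. They were taken from 3 single-cell RNA libraries by their unique molecular identifiers (UMIs), the counts of single captured transcripts. Barcodes with fewer than 500 genes, fewer than 1000 UMIs or over 10% mitochondrial UMIs were dropped. A remaining barcode was a member if Krt1 and Krt10 together made up at least 0.5% of its UMIs, and the granular gene Lor stayed under 0.5%. Members also had Krt79 and Krt17 together under 0.1% of UMIs, at most 1 UMI of Mki67 and Top2a, and no UMI of Ptprc, so that upper follicle cells, cycling cells and leukocytes were left out. This gave 1098 members of 37961 kept barcodes, 502 in adult Langerin-DTA, 376 in adult WT and 220 in young WT. Since Krt1 and Krt10 chose the members, their levels, and those of any gene set against basal keratinocytes, are given as a description only.

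Adult Langerin-DTA ear skin came from 4 male and 6 female mice 8 weeks old, adult WT from 6 males and 4 females 8 weeks old, and young WT from 5 males and 3 females 4 weeks old. Langerin-DTA mice carry diphtheria toxin A under human Langerin regulatory sequence, which removes the Langerhans cells of the epidermis. Per the labels they were bred from hemizygous males and wild-type females, with wild-type littermates as controls. C57BL/6J is named in the titles of the wild-type samples, while no strain stands in the Langerin-DTA title. The ears of each group were pooled, digested, sorted into lymphatic endothelial, blood endothelial, CD45+ and CD45-CD31- gates, mixed in equal parts and run as 1 library, so keratinocytes should come from the CD45-CD31- gate. With 1 library per group there is no replicate check and no test. The 95% intervals given below are exact, cover counting error only, and leave out variation between mice, pools and captures. Those of UMI counts and their ratios also leave out variation between cells.

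A basal keratinocyte that leaves the basement membrane stops making Krt5 and Krt14 and switches to Krt1 and Krt10, whose filaments are anchored to desmosomes and give the spinous layer its strength. Notch signalling and transcription factors such as Klf4, Ovol1, Grhl3 and Zfp750 drive this switch. Higher in the epidermis the cells load lamellar granules with lipids and proteases, and the granular layer adds loricrin and filaggrin. Langerhans cells lie between the suprabasal keratinocytes, depend on keratinocyte Il34, and in mice share the epidermis with dendritic epidermal T cells, whose selection needs Skint1.

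The libraries held 124590777 UMIs in adult Langerin-DTA, 128595813 in adult WT and 137441575 in young WT, of which members held 7838338, 6759408 and 4691772. The median member had 15286.5 UMIs in adult Langerin-DTA, 17799.5 in adult WT and 21043.5 in young WT, with median mitochondrial shares of 1.85%, 2.04% and 1.45%. Doublet calls took in 15, 15 and 13 members, and no barcode sequence of a member occurred among the members of another library. Cd207, the mouse gene of Langerin, stood at 1.05 CPM (the UMIs of a gene over all UMIs of the same cells, scaled to the usual depth) in the non-keratinocyte barcodes of adult Langerin-DTA, against 196 CPM in adult WT and 227 CPM in young WT. In members it had 0 UMIs in adult Langerin-DTA, 3 in adult WT and 5 in young WT.

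The markers listed for the label are given as a description. Krtdap, a secreted protein of differentiating keratinocytes, averaged 7597 CPM in adult Langerin-DTA members, 6674 in adult WT and 3984 in young WT, against 320.4, 482.0 and 230.3 CPM in the basal keratinocytes of the same libraries. Mt4, the metallothionein of squamous epithelia, averaged 2221, 2164 and 1208 CPM in members in the same order of libraries, against 25.3, 49.9 and 15 CPM in basal cells. Calm4, a calmodulin-like protein of skin, stood at 3781, 3472 and 3154 CPM, against 193, 225 and 242 CPM in basal cells, and Skint6 at 696, 603 and 464 CPM, against 15.5, 9.85 and 9.93 CPM. Krt2, which pairs with Krt10 in the upper spinous layer of the mouse ear, reached 8542, 7150 and 8671 CPM. Krtdap, Mt4, Calm4 and Skint6 were thus far above the basal level in each library. They were listed as markers with earlier results of these data known, so their levels are no independent check of the label.

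Markers of granular cells were low, while those of other cells varied by list. Lor had 52 UMIs in 30 adult Langerin-DTA members, 46 in 22 adult WT members and 19 in 19 young WT members, which is 6.63, 6.81 and 4.05 CPM. Flg, the filaggrin gene, had 26 UMIs, in 2 cells, in adult Langerin-DTA, 0 in adult WT (exact Poisson upper limit 0.546 CPM) and 1 in young WT. The granular list of 7 genes summed to 63.8 CPM in adult Langerin-DTA, 30.5 in adult WT and 17.1 in young WT. Barcodes with Lor at 0.5% or more were only 2, so cells that count as granular by Lor were nearly absent. By this limit the members end the differentiation series here. A few members held other granular transcripts, such as the 26 Flg UMIs in 2 cells, and whether granular-like cells are among the members was not tested. The endothelial list of 7 genes summed to 84.5, 170 and 101 CPM and the fibroblast list of 6 genes to 75.3, 8.88 and 52.7 CPM. Some lists stood above the basal level. The sebocyte list of 5 genes summed to 179, 171 and 161 CPM in members, against 127, 120 and 120 CPM in basal cells. The Schwann list of 4 genes summed to 104, 102 and 88.2 CPM, against 73.2, 72.15 and 60.4 CPM. In non-keratinocyte barcodes it summed to 23.4, 27.5 and 43.5 CPM, less than in members. Of its 4 genes 1 reached 10 CPM in members of each library. The upper follicle list of 7 genes summed to 176, 196 and 107 CPM, against 84.0, 91.5 and 86.7 CPM. Cd74, an antigen-presentation gene of immune cells, stood at 1.40, 16.4 and 4.69 CPM in members and at 536, 1857 and 2364 CPM in the non-keratinocyte barcodes of the same libraries. More than 2 UMIs of markers of endothelial, stromal, pigment, Schwann or immune cells were held by 164 of 502 adult Langerin-DTA members. In adult WT they were held by 158 of 376 members and in young WT by 108 of 220. The Schwann list, higher in members than in non-keratinocyte barcodes, entered these counts, so they are no measure of transcripts from other cells. The part of the transcripts of other cells in the results below was not tested.

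Krtdap, Sbsn and Dmkn, the genes of keratinocyte differentiation-associated protein, suprabasin and dermokine, lie side by side on chromosome 7 of the mouse in the same direction, and all encode secreted proteins of stratified epithelia. Sbsn spans 30751471 to 30756134, Dmkn 30763756 to 30781063 and Krtdap 30787896 to 30791097 (GRCm38, GENCODE M21, plus strand). The 250 bases before RefSeq starts of these genes (GRCm38.p6, plus strand) are shown, without a further Dmkn start 2 bases after the first, because these neighbours are among the most abundant genes of the members and because the same motif occurs in every window. Capitals mark TGANTCA, the letters of the AP-1 motif, where N is any base and both strands were searched.
Sbsn, chr7:30751221-30751470: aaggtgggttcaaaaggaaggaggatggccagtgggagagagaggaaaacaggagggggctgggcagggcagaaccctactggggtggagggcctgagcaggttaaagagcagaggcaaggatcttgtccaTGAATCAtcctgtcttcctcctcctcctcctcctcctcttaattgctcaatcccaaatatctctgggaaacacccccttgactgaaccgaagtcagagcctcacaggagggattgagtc
Dmkn, first start, chr7:30763506-30763755: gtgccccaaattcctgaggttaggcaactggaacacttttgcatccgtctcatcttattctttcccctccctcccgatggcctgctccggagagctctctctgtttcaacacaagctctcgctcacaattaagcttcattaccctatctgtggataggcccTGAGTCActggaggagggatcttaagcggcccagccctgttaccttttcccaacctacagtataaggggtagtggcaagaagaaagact
Dmkn, downstream start, chr7:30776155-30776404: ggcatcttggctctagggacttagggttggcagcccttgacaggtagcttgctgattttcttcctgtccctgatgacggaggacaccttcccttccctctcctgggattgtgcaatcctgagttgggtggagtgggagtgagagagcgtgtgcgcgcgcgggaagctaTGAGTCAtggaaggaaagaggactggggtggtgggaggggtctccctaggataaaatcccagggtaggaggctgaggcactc
Krtdap, chr7:30787655-30787904: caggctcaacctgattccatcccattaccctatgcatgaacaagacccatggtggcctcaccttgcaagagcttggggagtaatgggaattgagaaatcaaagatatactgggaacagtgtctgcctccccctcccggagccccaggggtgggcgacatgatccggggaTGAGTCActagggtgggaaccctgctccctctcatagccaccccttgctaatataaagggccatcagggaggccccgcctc
The motif reads TGAATCA in Sbsn, from 119 to 113 bases before the start. It reads TGAGTCA in both Dmkn windows shown, from 89 to 83 and from 82 to 76 bases before the start, and in Krtdap from 81 to 75. Of 32851 RefSeq promoter windows of the mouse, 2217, or 6.75%, hold these letters in the 250 bases before the start. The motif was 1 of 7 searched and was chosen for display after the matches were seen. Of 12 genes looked up 11 had a window, of which 4 had a match in at least 1 window and 7 had none. Beside the genes shown, Serpinb12 had a match in 1 of its 2 windows, and Krt10, Krt2, Mt4, Calm4, Skint6, Elovl4 and Ly6g6c had no match. A match of letters is a description of the sequence and no evidence of binding.

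The members were not alike but lay along a continuous series, from cells still close to basal to cells with high Krt10. To show it, basal keratinocytes (Krt5 and Krt14 together at 0.5% of UMIs or more, and Krt1 and Krt10 together below the rule) were split into those with under 0.1% Krt1 and Krt10 and those with 0.1 to 0.5%, and members into 0.5 to 1%, 1 to 2%, and 2% and over. In this order Krtdap stood at 240.6, 647, 1945, 6365 and 10199 CPM in adult Langerin-DTA, at 373.8, 1025, 2451, 6393 and 9185 CPM in adult WT, and at 166.7, 434.8, 1404, 2453 and 5564 CPM in young WT. It climbed at every step in all 3 libraries, and the young WT value was the lowest at each step. Sbsn began late, at 26.4, 33.2, 82.3, 868 and 2669 CPM in adult Langerin-DTA, 34.1, 37.5, 242, 809 and 1765 CPM in adult WT, and 28.5, 31.4, 61.3, 233 and 1362 CPM in young WT. Dmkn was already at 357, 426 and 445 CPM in the most basal cells of the 3 libraries and ended at 1985, 1718 and 1615 CPM. The 3 neighbouring genes thus differed in when along the series they became abundant.

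**Figure D1:**
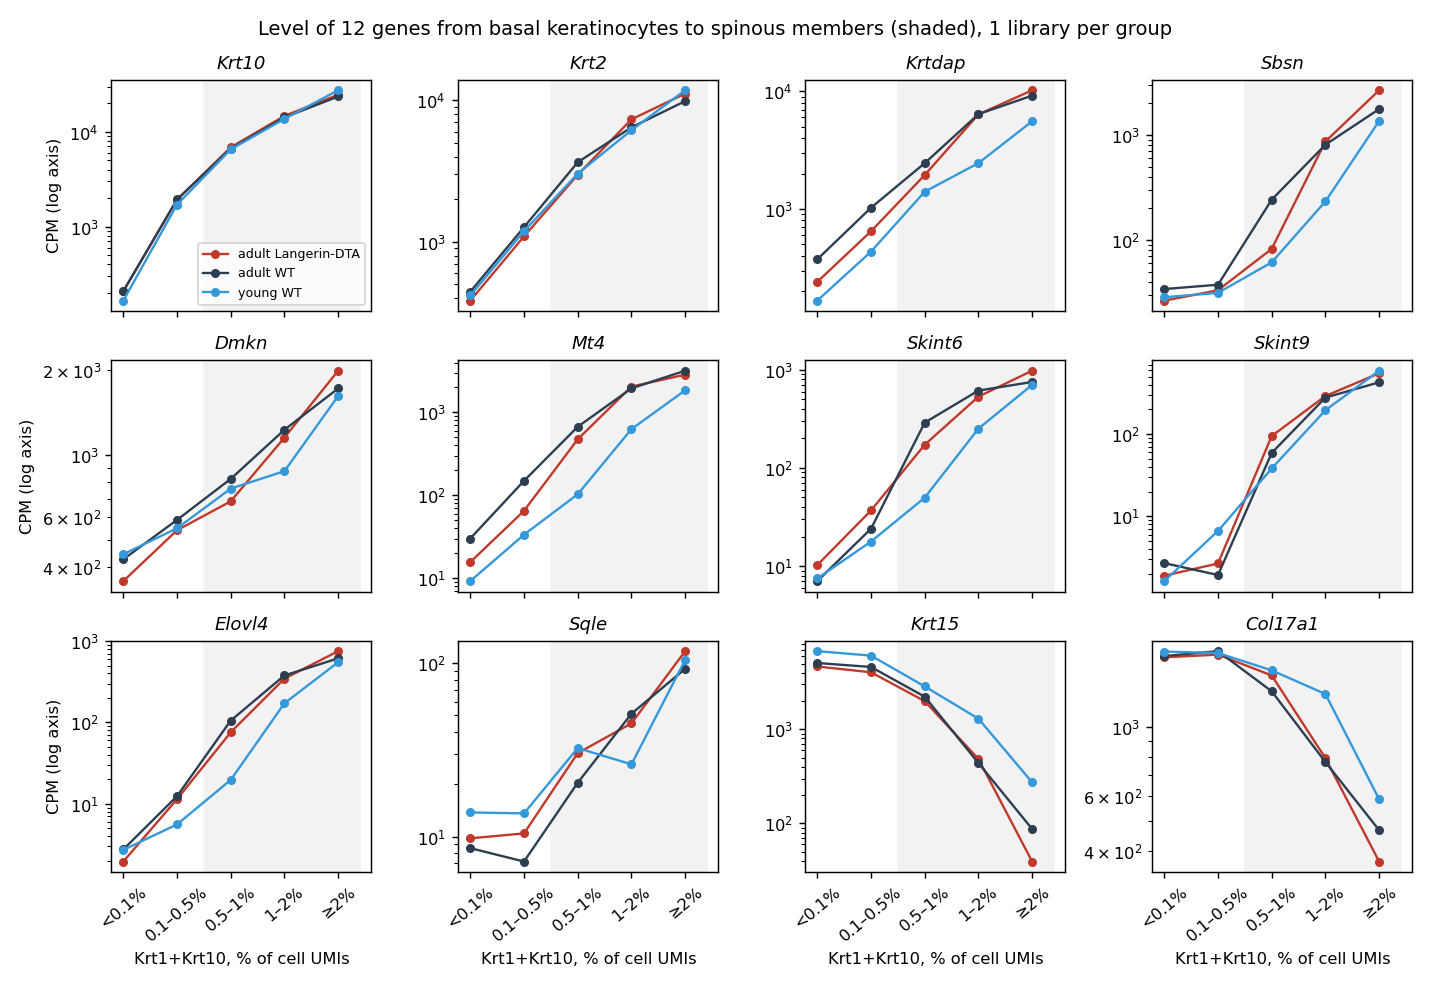
Level of 12 genes in CPM (log axis) in each library, over 5 ranges of the Krt1 plus Krt10 share of a cell's UMIs, with the 3 ranges of the members shaded. Each point is the sum over the cells of 1 range in 1 library. Krtdap, Sbsn, Mt4 and Skint6 climb along the series, Krt15 and Col17a1 decline, and young WT lags in Krtdap and Mt4 at every range.

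Genes of the lamellar granule and its lipids belonged to the later members. Elovl4, the elongase of the very long acyl chains of barrier ceramides, stood at 75.7, 346 and 752 CPM over the 3 ranges of members in adult Langerin-DTA, at 105, 378 and 613 CPM in adult WT, and at 19.7, 172 and 550.1 CPM in young WT, against 3.8, 4.35 and 3.39 CPM in the basal cells of these libraries. Abca12, the lipid transporter of the lamellar granule, averaged 331, 334 and 251 CPM in members, against 6.04, 7.19 and 3.89 CPM in basal cells. Fabp5, the epidermal fatty acid-binding protein, averaged 641, 616 and 660 CPM in members and 20.5, 18.0 and 19.4 CPM in basal cells. Serpinb12, a serine protease inhibitor, had the largest ratio to basal cells of the genes at 100 CPM or more, 223-fold over the mean of the 3 libraries, with 184, 137 and 144 CPM in members. Ly6g6c, which encodes a small surface protein, followed at 219-fold, then Skint9 at 143-fold, Gm94 at 122-fold and Elovl4 at 110-fold. At 0.5 to 1% Krt1 and Krt10 Serpinb12 stood at 7.57, 10.2 and 5.79 CPM, and at 2% and over at 290.4, 217 and 234 CPM. Ly6g6c stood at 31.2, 51.1 and 10.4 CPM in the first of these ranges and at 735, 535 and 390 CPM in the last.

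The basal programme faded along the same series. Krt15, a keratin of basal cells, declined from 1993 over 484 to 39.3 CPM over the 3 ranges of members in adult Langerin-DTA, from 2223 over 438 to 87.3 CPM in adult WT, and from 2858 over 1298 to 273 CPM in young WT. Col17a1, the hemidesmosomal collagen, kept 369 CPM in the 2% range of adult Langerin-DTA, 465 CPM in adult WT and 585 CPM in young WT. Of the genes at 100 CPM or more, the most reduced in members were Lgr6, a stem cell receptor, at 14.1-fold more in basal cells, Sema5a, a semaphorin, at 13.6-fold, and Itga2, the collagen receptor subunit, at 13.2-fold. Itga3, the laminin receptor subunit, stood 8.46-fold and Lamb3, a chain of laminin 332, 7.23-fold higher in basal cells. Krt5 and Krt14 still made up 0.5% of UMIs or more in 124 members of adult Langerin-DTA (24.7%), 105 of adult WT (27.9%) and 84 of young WT (38.2%).

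Just outside the threshold, cells with 0.4 to 0.5% Krt1 and Krt10 had 1199 CPM of Krtdap in adult Langerin-DTA (37 cells), 1463 in adult WT (23 cells) and 816 in young WT (20 cells). Just inside, cells with 0.5 to 0.6% had 1893 CPM (21 cells), 1357 CPM (20 cells) and 1124 CPM (8 cells). The threshold thus marked no jump shared by the 3 libraries. In adult WT Mt4 (433 and 357 CPM), Calm4 (907 and 821 CPM) and Skint6 (78.1 and 39.2 CPM) were, like Krtdap, lower inside than outside. These ranges hold few cells. Krt14 was at 11194, 8998 and 10033 CPM outside and at 10680, 8176 and 11477 CPM inside.

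Over the gene lists, the contrast with basal cells had the following shape, on 8812 genes at 10 CPM or more, of which 7.98% were at least 1.5-fold higher and 16.9% at least 1.5-fold lower in members. Cholesterol synthesis had 20 of 22 genes higher, with a median log2 ratio of 1.58. Sqle, the squalene epoxidase, stood at 77.6, 60.7 and 70.8 CPM in members of adult Langerin-DTA, adult WT and young WT, against 9.89, 8.34 and 13.7 CPM in basal cells. Epidermal lipid genes had 16 of 19 higher, the Skint family 9 of 9 (median 3.32), and desmosome genes 10 of 13, among them Dsg1a at 1034, 943 and 835 CPM in members, against 239, 244 and 223 CPM in basal cells. The 2 desmosome genes that were lower were Dsg2 and Dsg3, the desmogleins of deeper cells. Dsc1, the desmocollin of the upper layers, had 101, 54.3 and 61.8 CPM in members and 0.904, 1.33 and 2.48 CPM in basal cells.

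All 18 basement membrane genes and all 14 genes of the basal keratin and adhesion list were lower in members, and so were 11 of 19 genes of the list of cytokine receptors and their signalling, among them the receptor subunits Osmr, Lifr and Il6st, the transcription factor Stat3 and its inhibitor Socs3. Of the 3 metallothioneins Mt4 was higher, and Mt1 and Mt2 were lower. MHC class I genes had 6 of 15 lower and none higher. Since the members were chosen on this contrast, these counts describe them and support nothing further.

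Of 32 differentiation factors 11 were higher in members and 3 lower. Zfp750, which ends the basal state, stood at 287, 287 and 213 CPM in members of adult Langerin-DTA, adult WT and young WT, against 12.8, 13 and 9.10 CPM in basal cells, and was already at 149, 211 and 119 CPM in the first range. Ovol1, a repressor needed for exit from proliferation, had 714, 661 and 603 CPM in members and 129, 127 and 129 CPM in basal cells. Grhl3, a barrier factor, had 51.8, 46.0 and 50.1 CPM, against 4.95, 6.51 and 8.69 CPM. Trp63, the factor of the basal state, was lower at 378, 410 and 424 CPM, against 576, 622 and 660 CPM. Of 14 Notch pathway genes 4 were higher (Notch2, Notch3, Hes1 and Nrarp) and 4 lower (Jag2, Dll1, Lfng and Maml2). The receptor Notch3 had 58.4, 65.7 and 78.0 CPM in members and 4.47, 4.35 and 4.38 CPM in basal cells, whereas the ligand Jag2 had 15.4, 16.1 and 40.3 CPM in members and 137, 135 and 217 CPM in basal cells. Notch3 was thus higher and Jag2 lower in members in every library.

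Of 13 Langerhans niche signals 3 were higher in members (Il34, Tslp and Ccl20) and 4 lower (Tgfb1, Tgfb2, Itgb6 and Itgb8), and of 6 epidermal T cell signals 2 were higher (Il15 and Nectin2) and 2 lower (Cxadr and Ccl27a). Il34, the survival factor of Langerhans cells, stood at 166, 159 and 189 CPM in members of adult Langerin-DTA, adult WT and young WT, and at 107, 102 and 97.7 CPM in basal cells. Skint1 stood at 182, 181 and 179 CPM in members, against 84.9, 91.5 and 69.7 CPM in basal cells. The members of the Skint family are similar in sequence and lie in 1 cluster on chromosome 4, so counts of single members are uncertain where reads could fit several.

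The members made up between 15.6% and 17.8% of the keratinocytes of each library. They were 502 of 2819 keratinocyte barcodes in adult Langerin-DTA (17.8%, exact binomial 95% interval 16.4 to 19.3), 376 of 2408 in adult WT (15.6%, 14.2 to 17.1), and 220 of 1285 in young WT (17.1%, 15.1 to 19.3). The intervals of the 3 libraries overlap. The share of keratinocytes among all barcodes is set by the mixing of gates and was not compared. Within the members, 2% or more Krt1 and Krt10 was reached by 206 in adult Langerin-DTA (41.0%, 36.7 to 45.5), 125 in adult WT (33.2%, 28.5 to 38.3) and 110 of 220 in young WT (interval 43.2 to 56.8). The range of 1 to 2% held 41.8%, 44.4% and 28.6% of members. The median Krt1 and Krt10 share was 1.81%, 1.64% and 2.01%, and the highest 6.94%, 5.85% and 5.79%. Both keratins chose the members, so the ranges and shares are a description and no difference between libraries is drawn from them.

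**Figure D2:**
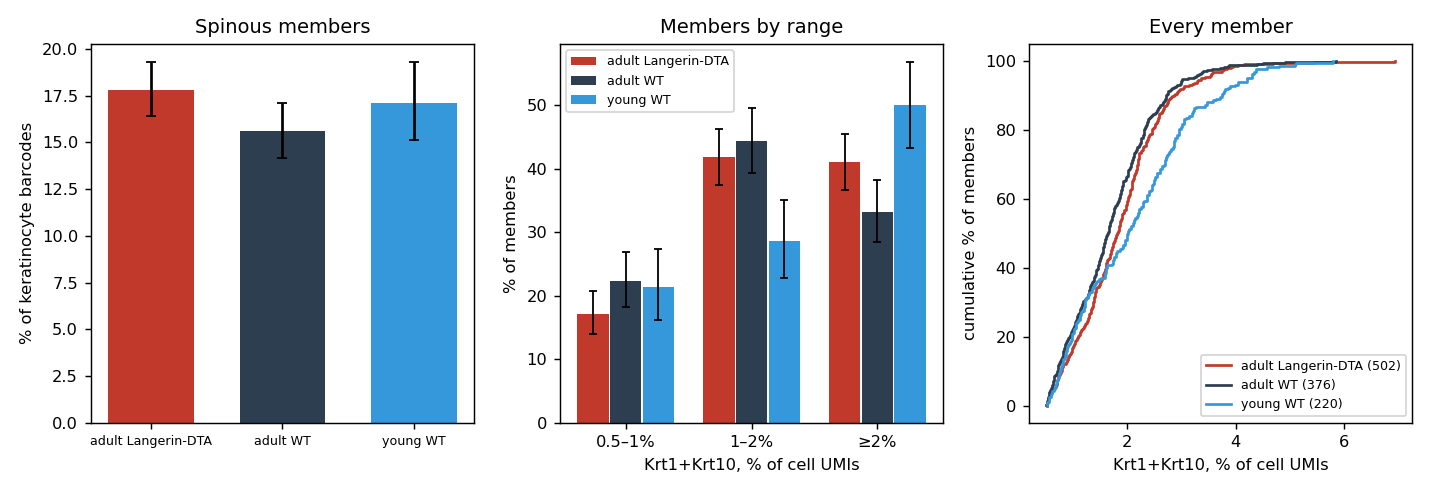
Left, members as a percentage of keratinocyte barcodes in each library. Middle, members in 3 ranges of the Krt1 plus Krt10 share; bars are percentages with exact binomial 95% intervals. Right, cumulative percentage of members by their Krt1 plus Krt10 share. At a share of 2% the young WT curve lies lowest, since 110 of its 220 members are above it, against 206 of 502 in adult Langerin-DTA and 125 of 376 in adult WT. The same keratins chose the members, so this is a description only.

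Krt1 and Krt10 did not run in step. Krt10 had UMIs in every member, at 18332 CPM in adult Langerin-DTA, 16178 in adult WT and 19962 in young WT. Krt1 stood at 1382, 1634 and 2342 CPM and had UMIs in 66.5%, 70.5% and 83.2% of members, against 33.8%, 36.0% and 53.4% of basal cells and 0.42%, 0.71% and 0.80% of non-keratinocyte barcodes. Median depths were 15286.5, 17799.5 and 21043.5 UMIs in members, 10708, 13256 and 15614 in basal cells, and 7309, 7267.5 and 9253 in non-keratinocyte barcodes. After thinning every cell to 3000 UMIs the Krt1 shares of members were 51.3%, 53.6% and 67.7%. Both keratins chose the members, so no test or comparison is drawn from this.

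The first comparison was adult WT over young WT, the change between 4 and 8 weeks of age. A gene was counted when the 2 libraries together held 100 UMIs or more and the higher one reached 10 CPM. In both comparisons a gene under 10 CPM in 1 library could thus enter only where it was higher in the other. Of 8282 such genes 777 (9.38%) passed 1.5-fold: 460 (5.55%) were at least 1.5-fold higher in adult WT members and 317 (3.83%) at least 1.5-fold lower, with a median log2 ratio over all genes of -0.05. The genes named next were ranked by the end of the interval nearest 0 among those at 30 CPM or more that differed the same way in the cells called male and in those called female. Higher in adult WT were Pyy, Pkib, Ccl27a, Nlrc5, Nmt1, Defb6, Rps29, Hes1, Atp5k, Rpl38, Fam25c and Rps28. Lower were Il31ra, Thsd4, Igfbp2, Gm26561, Pdzrn4, Lars2, Rbms3, Col7a1, Jag2, Gas1, Gm26917 and Hist1h1e.

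Pyy, which encodes the hormone peptide YY, differed most. It stood at 144 CPM in adult WT members (970 UMIs), against 2.77 CPM in young WT members (13 UMIs), a log2 ratio of 5.69 (95% interval 4.91 to 6.61). It had UMIs in 79 of 376 adult WT members (21.0%) and 10 of 220 young WT members (4.55%), or 8.84% and 1.38% after thinning to 3000 UMIs. In non-keratinocyte barcodes 0.218% and 0.018% had a UMI, and in basal cells 15.4% and 3.09%, at the median depths given above. Few cells carried most of it: the 5 highest cells held 70.7% of the Pyy UMIs of adult WT members. Basal cells carried it too, with 124 CPM in adult WT basal cells and 6.12 CPM in young WT basal cells. Within adult WT members it was at 311, 162 and 35.1 CPM over the ranges of Krt1 and Krt10, lowest in the most differentiated. In adult Langerin-DTA members it was at 137 CPM, in 146 of 502 cells.

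Hes1, the transcriptional effector of Notch, stood at 503 CPM in adult WT members, against 122 CPM in young WT members (2.04, interval 1.92 to 2.17). Adult WT was above young WT in each range of the members, at 488, 548 and 455 CPM, against 138, 116 and 119 CPM. Its ratio was 1.77 in basal cells and 1.41 in non-keratinocyte barcodes. The ligand Jag2 went the other way, at 16.1 CPM in adult WT members and 40.3 CPM in young WT members (-1.32, interval -1.67 to -0.97). These were the only 2 of 12 tested Notch pathway genes past 1.5-fold. Fam25c stood at 1546 CPM in adult WT members, against 479 CPM in young WT members (1.69, interval 1.63 to 1.76), and was detected in nearly all members of both libraries.

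Among the genes higher in adult WT were several of the MHC class I pathway. Nlrc5, the transactivator of MHC class I genes, stood at 33.4 CPM in adult WT members and 4.69 CPM in young WT members (2.83, interval 2.20 to 3.54). B2m, which encodes beta-2-microglobulin, stood at 310 CPM in adult WT members, against 99.5 CPM in young WT members (1.64, interval 1.49 to 1.79). H2-K1 was at 284 CPM in adult WT members and 132 CPM in young WT members, and H2-D1 at 229 CPM and 118 CPM. In all, 6 of 12 tested genes of the MHC class I pathway were higher and none lower, with a median log2 ratio of 0.62; the others past 1.5-fold were Psmb9 and Tap2, and Tap2 turned to -0.32 when cells were thinned to 3000 UMIs. The same list had a median of 0.41 in basal cells, and B2m a ratio of 0.65 in non-keratinocyte barcodes. Ccl27a, the keratinocyte chemokine that draws CCR10+ T cells, stood at 95.7 CPM in adult WT members and 16.4 CPM in young WT members (2.54, interval 2.20 to 2.90), and at 351 and 111 CPM in the basal cells, where most of it lies. Defb6, a beta-defensin, stood at 95.4 CPM in adult WT members and 19.4 CPM in young WT members. The 5 highest cells held 64.3% of its UMIs in adult WT and 86.8% in young WT, and its ratio in non-keratinocyte barcodes was 3.31. Of 10 tested interferon response genes 3 were higher, and of 10 Langerhans niche signals none passed 1.5-fold. Of 8 tested alarmin and IL-1 family genes Il1f5 was lower and none higher, and of 6 epidermal T cell signals Ccl27a alone passed 1.5-fold.

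**Figure D3:**
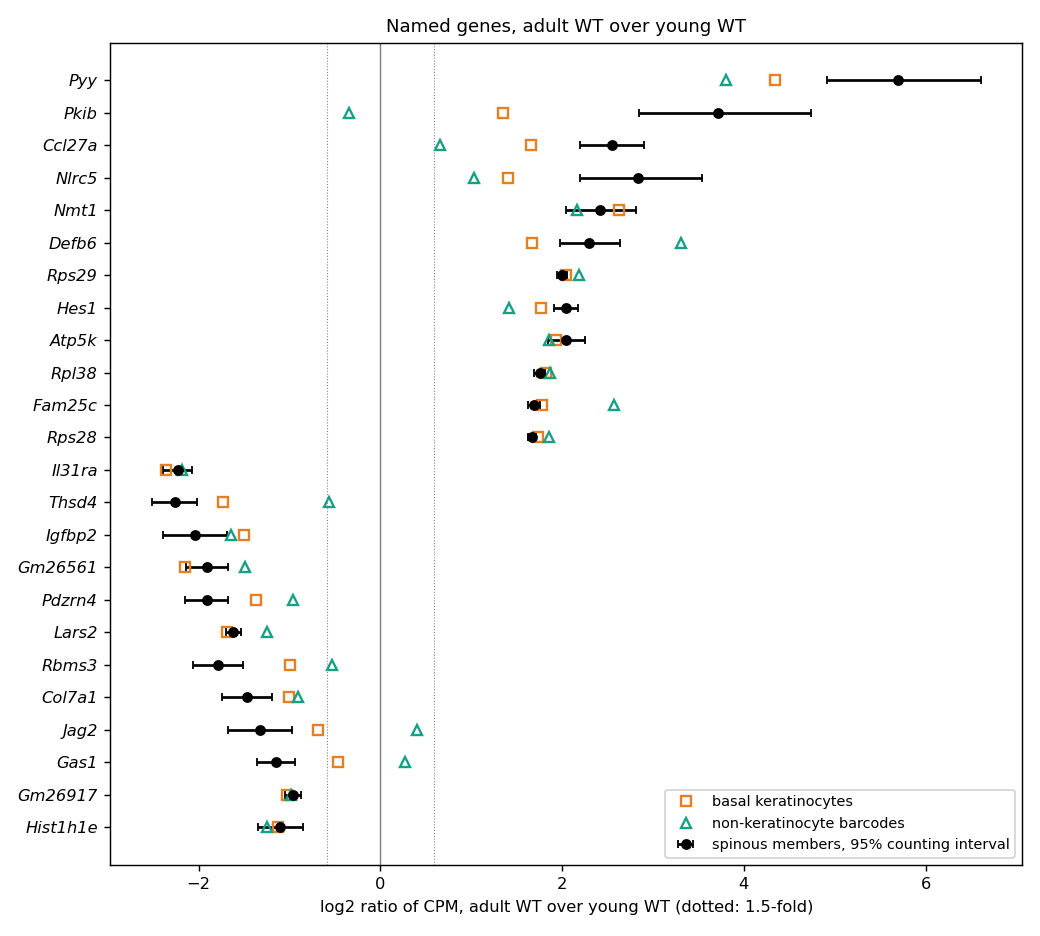
Log2 ratio of CPM, adult WT over young WT, for the 24 named genes. Points with bars are members with exact 95% counting intervals, squares basal keratinocytes and triangles non-keratinocyte barcodes of the same libraries; dotted lines mark 1.5-fold. Nmt1, Rps29, Atp5k, Rpl38, Rps28, Il31ra, Gm26917 and Hist1h1e lie close together in all 3, while Pkib, Jag2 and Gas1 lie apart from the non-keratinocyte barcodes.

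Several named genes differed by a like amount in members, in basal cells and in the pooled non-keratinocyte barcodes. Rps29, a ribosomal protein gene, stood at 2688 CPM in adult WT members and 671 CPM in young WT members (2.0), with ratios of 2.04 in basal cells and 2.19 in non-keratinocyte barcodes. Rpl38 (1.75), Rps28 (1.67), Atp5k (2.05) and Nmt1 (2.42) had ratios of 1.87, 1.86, 1.86 and 2.17 in non-keratinocyte barcodes. Il31ra, a subunit of the IL-31 receptor, stood at 62.7 CPM in adult WT members and 294 CPM in young WT members (-2.23), with ratios of -2.36 in basal cells and -2.19 in non-keratinocyte barcodes. Lars2, the mitochondrial leucyl-tRNA synthetase (-1.62), Gm26917 (-0.96) and Hist1h1e (-1.10) had ratios of -1.25, -0.98 and -1.25 there. With 1 library per age, age and library cannot be told apart.

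Differentiation genes were partly higher in adult WT. Krtdap stood at 6674 CPM in adult WT members and 3984 CPM in young WT members (0.74, interval 0.72 to 0.77), and Mt4 at 2164 and 1208 CPM (0.84, interval 0.80 to 0.89). Both were higher in adult WT in each range of Krt1 and Krt10, Krtdap by 0.80, 1.38 and 0.72 and Mt4 by 2.70, 1.63 and 0.79. Sbsn, with 1053 CPM in adult WT members and 827 CPM in young WT members (0.35), and Dmkn, with 1330.1 and 1264 CPM (0.07), did not pass 1.5-fold. Calm4 stood at 3472 and 3154 CPM (0.14). The counting intervals were 0.29 to 0.40 for Sbsn and 0.03 to 0.12 for Dmkn. They leave out variation between cells, so whether the ratios of these genes differ was not tested. Of 7 cornified envelope genes, Krtdap and Sprr1a were higher and Tchh and Tgm3 lower, and Tgm3 turned to 0.55 when cells were thinned to 3000 UMIs.

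In the Skint family 4 of 9 genes were at least 1.5-fold higher in adult WT and none lower, with a median of 0.38. Skint5 stood at 378 CPM in adult WT members and 250.4 CPM in young WT members (0.59), and Skint11 at 133 and 77.4 CPM (0.79). Skint3 (0.75) and Skint4 (0.59) were the other 2. Skint6, at 603 CPM in adult WT and 464 CPM in young WT, had a ratio of 0.38, and Skint9, at 291 and 385 CPM, one of -0.40, while Skint1 stood at 181 and 179 CPM. For Skint5 the levels were 249, 381 and 439.5 CPM over the ranges of adult WT members, against 28.9, 112 and 389 CPM in young WT members. Serpinb2, an intracellular protease inhibitor, stood at 797 CPM in adult WT members and 420.3 CPM in young WT members (0.92), and Spink5, the inhibitor of epidermal kallikreins, at 219 and 117 CPM (0.91).

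Genes of the basal programme were lower in adult WT members. Krt15 stood at 646 CPM in adult WT members and 1017 CPM in young WT members (-0.66, interval -0.72 to -0.60), and Dst, the hemidesmosomal plakin, at 1054 and 1650.3 CPM (-0.65). Col7a1, the collagen of anchoring fibrils, stood at 24.9 CPM in adult WT members and 68.6 CPM in young WT members (-1.47, interval -1.74 to -1.19). Of 10 tested basement membrane genes 4 were lower (Col4a5, Lamb3, Lamc1 and Col7a1) and none higher, with a median of -0.56, and of 14 genes of basal keratins and adhesion 4 were lower and none higher, with a median of -0.38. In basal cells the medians of these lists were -0.39 and -0.13. Thsd4, a matrix protein, stood at 26 CPM in adult WT members and 125 CPM in young WT members (-2.26), Igfbp2, a binding protein of insulin-like growth factors, at 13.6 and 55.8 CPM (-2.04), and Gas1, a growth arrest and hedgehog co-receptor gene, at 45.7 and 101 CPM (-1.15). Their ratios in basal cells were -1.73, -1.50 and -0.46.

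Beside this stands the makeup of the members. In the range of 1 to 2% Krt1 and Krt10, the median cell had 0.016% of its UMIs from Krt5 and Krt14 in adult WT and 0.655% in young WT. Krt14 stood there at 1343 CPM in adult WT members and 3539 CPM in young WT members, and Krt15 at 438 and 1298 CPM. Within this range the young cells thus held more basal keratin transcripts. Cells were not matched for their Krt1 and Krt10 share within the range. How far the basal keratin and list differences follow from the makeup of the members was not tested.

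The second comparison was adult Langerin-DTA over adult WT, which sets skin without Langerhans cells against skin with them at 8 weeks. Of 8228 genes 251 (3.05%) passed 1.5-fold: 117 (1.42%) were at least 1.5-fold higher in adult Langerin-DTA members and 134 (1.63%) at least 1.5-fold lower, with a median log2 ratio of -0.03. By the same rule as above the higher genes named were Krt77, Sprr1a, Dnase1l3, Mboat2, Orm1, Dkkl1, 2310050C09Rik, Calml3, Gm94, Cldn4, Hal and Areg. The lower ones were Krt16, Sostdc1, Defb6, Taco1, Ccl27a, Pkp4, Icam1, Itpripl2, Mid1, Prr16, Cep295 and Sfmbt1.

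All 12 of the higher genes stood highest in the members with 2% or more Krt1 and Krt10, in both libraries. Dnase1l3, a secreted DNase, stood at 99.8 CPM in adult Langerin-DTA members and 29.1 CPM in adult WT members (1.78, interval 1.55 to 2.01), with 0.238 and 0.641 CPM in basal cells. In non-keratinocyte barcodes it stood at 3.57 and 0.805 CPM (2.15), where no other higher gene named passed 1.5-fold upward. Among members Dnase1l3 was higher in adult Langerin-DTA in each range of Krt1 and Krt10, at 22.7, 70.6 and 145 CPM, against 6.29, 26.9 and 43.6 CPM in adult WT. Gm94, whose function is not known, stood at 213 and 99.1 CPM (1.10, interval 0.97 to 1.23). Hal, the histidine ammonia-lyase that makes urocanic acid in the outer epidermis, stood at 57.5 and 24.9 CPM (1.21), Calml3, a calmodulin-like protein, at 59.2 and 24.6 CPM (1.27), and Cldn4, a tight junction claudin, at 35.7 and 14.5 CPM (1.3). Orm1, an acute-phase glycoprotein, stood at 54.9 and 17.0 CPM (1.69), and Areg, a ligand of the EGF receptor, at 90.8 and 41.1 CPM (1.14). For Areg the male-called cells gave 2.28 and the female-called 0.54. Mboat2 gave 3.26 and 0.73, Sprr1a 3.00 and 0.64, and Orm1 2.59 and 1.24. Among the higher genes named only Krt77 had the larger ratio in female-called cells, and for Hal the ratios were close (1.19 and 1.12). In female-called cells all of them but Areg passed 1.5-fold.

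In part these differences lay in few cells. Krt77, a keratin of the suprabasal layers, stood at 43.5 CPM in adult Langerin-DTA members and 10.8 CPM in adult WT members (2.01), but had UMIs in 13 of 502 and 12 of 376 cells, and its 5 highest cells held 97.1% and 87.7% of its UMIs. Sprr1a, a precursor of the cornified envelope, stood at 67.5 and 18.6 CPM (1.86), with 72.2% and 54.8% of UMIs in 5 cells. Klk7, a desquamation protease, stood at 29.6 and 3.85 CPM (2.94, interval 2.36 to 3.59), with UMIs in 13 cells of adult Langerin-DTA and 3 of adult WT and 94.8% in 5 cells of adult Langerin-DTA. The lower Krt16, a keratin of wounded skin, stood at 9.19 and 32.3 CPM (-1.81), with UMIs in 7 and 12 cells. For Krt16 the ratio turned to 4.31 in the range of 1 to 2%.

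**Figure D4:**
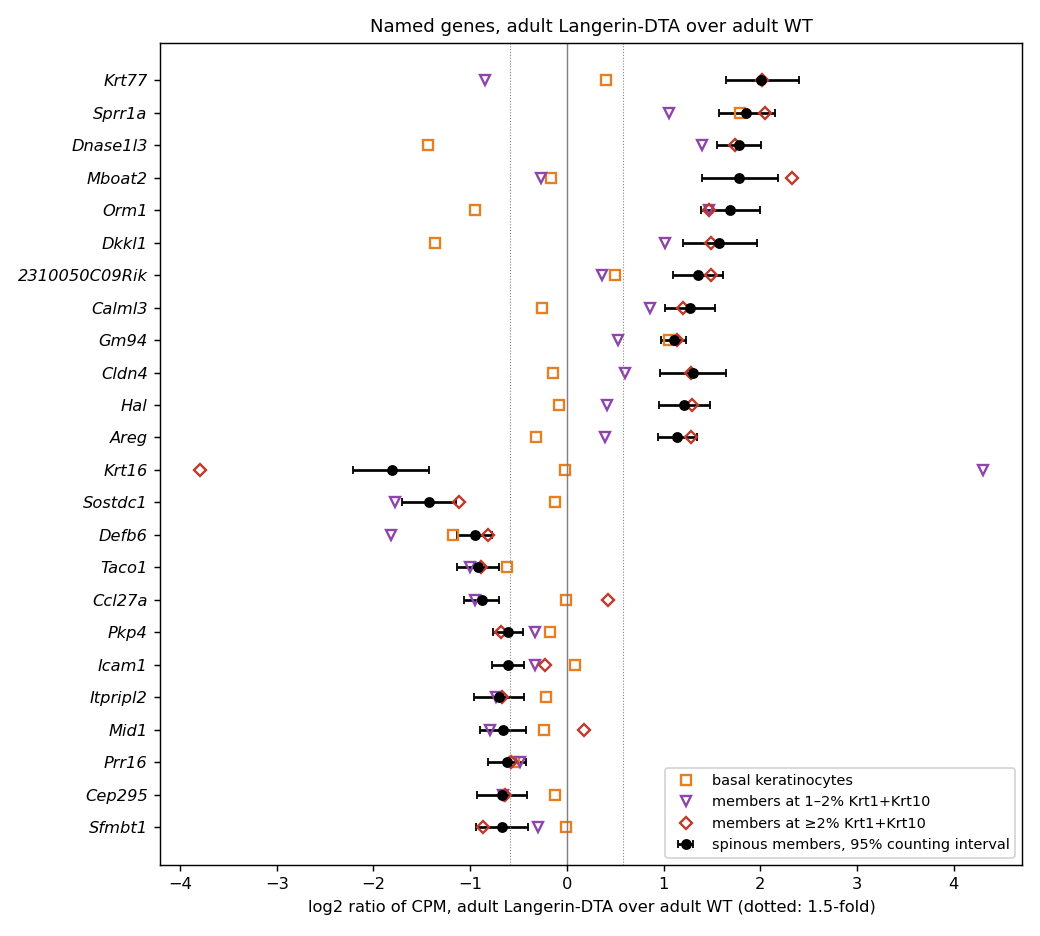
Log2 ratio of CPM, adult Langerin-DTA over adult WT, for the 24 named genes. Points with bars are all members with exact 95% counting intervals, triangles members at 1 to 2% and diamonds members at 2% or more Krt1 plus Krt10, squares basal keratinocytes; dotted lines mark 1.5-fold. The higher genes lie at or below 0 in basal cells, where all are under 5 CPM, except Sprr1a, Gm94, 2310050C09Rik and Krt77, and Krt16 lies on opposite sides of 0 in the 2 ranges of members.

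The cornified envelope list showed the same pattern. Of 11 tested genes 7 were higher in adult Langerin-DTA (Ivl, Hrnr, Sprr1a, Sprr1b, Cnfn, Sbsn and Cdsn) and Sprr2a3 was lower, with a median of 0.76. Sbsn, the most abundant of them past 1.5-fold, stood at 1620.2 CPM in adult Langerin-DTA members and 1053 CPM in adult WT members (0.62, interval 0.58 to 0.66). Its ratio was -1.56, 0.10 and 0.60 over the 3 ranges, so that of the 3 ranges only that of 2% or more passed 1.5-fold upward. Cnfn, cornifelin, stood at 19.8 and 3.70 CPM (2.42), with ratios of 5.16 in male-called and 0.11 in female-called cells. Ivl, involucrin, stood at 12.9 and 4.73 CPM (1.44). Cnfn and Ivl reached 10 CPM only in adult Langerin-DTA, so they could enter only as higher genes. The count of 7 and the median thus depend in part on the filter, and how far was not tested. Over the members of 0.5 to 2% the median of this list was -0.14, and over those at 2% or more it was 0.60. Male-called cells gave a median of 1.34 and female-called cells 0.11, each cell weighted equally 0.13, the 3 ranges weighted equally 0.39, cells thinned to 3000 UMIs 0.28, and members without a Lor UMI 0.55. Krtdap, at 7597 and 6674 CPM (0.19), and Dmkn, at 1486 and 1330.1 CPM (0.16), did not pass 1.5-fold. Sprr2a3 has near-identical copies beside it, and its 96 UMIs in adult WT lay in 6 cells, against 6 UMIs in 5 cells of adult Langerin-DTA.

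Proteases and their inhibitors of the outer layers followed. Spink5 stood at 382 CPM in adult Langerin-DTA members and 219 CPM in adult WT members (0.80, interval 0.71 to 0.89), with 620.1 and 304 CPM in the range of 2% and over, 190.5 and 208 CPM at 1 to 2%, and a ratio of 0.46 in basal cells. Cst6, cystatin M, a protease inhibitor of the outer layers, stood at 117 and 76.0 CPM (0.62). Of 17 tested genes of kallikreins and inhibitors 5 were higher (Klk5, Klk7, Spink5, Cst6 and Asprv1) and Stfa3 was lower, with a median of 0.21, and Klk5 turned to -0.24 when cells were thinned to 3000 UMIs. Dsc1 stood at 101 and 54.3 CPM (0.89, interval 0.71 to 1.08), and Krt78, a keratin of the upper layers, at 21.8 and 6.07 CPM (1.85). Krt78 here and Klk7 above reached 10 CPM only in adult Langerin-DTA, so they too could enter only as higher genes. Hspb1, a small heat shock protein, stood at 845 and 506 CPM (0.74), with 1237 and 716 CPM at 2% and over. Skint5 was the only Skint gene of 9 past 1.5-fold, at 617 CPM in adult Langerin-DTA members and 378 CPM in adult WT members (0.71), with 885 and 439.5 CPM at 2% and over. In female-called cells alone Sbsn (0.38) and Skint5 (0.37) did not pass 1.5-fold, while Spink5 (0.60) did. The granular marker sum given above was 63.8 CPM in adult Langerin-DTA and 30.5 CPM in adult WT, and female-called cells made up 61.0% of members in adult Langerin-DTA and 41.2% in adult WT. How much of the differences follows from the granular transcripts was not tested.

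Several of the lower genes were more abundant in basal cells than in members. Sostdc1, a secreted BMP and Wnt antagonist, stood at 19.6 CPM in adult Langerin-DTA members and 52.7 CPM in adult WT members (-1.42, interval -1.70 to -1.15), against 137 and 149 CPM in basal cells, where the 2 libraries differed by -0.12. Runx1, a transcription factor, stood at 7.40 and 25.4 CPM (-1.78), with 44.2% of the adult WT UMIs in 5 cells and 53.7 and 52.4 CPM in basal cells. Barx2, a homeobox factor, stood at 4.72 and 12.6 CPM (-1.41). Icam1, the adhesion ligand of leukocyte integrins, stood at 69.0 and 105 CPM (-0.61). Its ratio was -0.34 in male-called and -0.40 in female-called members, neither past 1.5-fold, and 0.08 in basal cells. Over the 3 ranges of Krt1 and Krt10 it was -0.66, -0.33 and -0.23. Cxcl1, a neutrophil chemokine, stood at 8.93 and 28.4 CPM (-1.67). Osmr and Lifr, receptor subunits of the gp130 family, stood at 25.9 and 39.6 CPM (-0.61) and at 20.5 and 32.3 CPM (-0.65). For these receptors the ratios in basal cells were -0.04 and -0.09. In non-keratinocyte barcodes Defb6 (-1.68), Pkp4 (-0.69), Taco1 (-0.64) and Krt16 (-2.58, under 1 CPM) were also past 1.5-fold lower. The other lower genes named were not.

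The genes that differed between young WT and adult WT were looked at again here. Ccl27a stood at 52.1 CPM in adult Langerin-DTA members, against 95.7 CPM in adult WT members (-0.88, interval -1.06 to -0.70), and Defb6 at 49.2 and 95.4 CPM (-0.95). Defb6 is also a marker of the upper follicle, whose list of 7 genes summed to 176 CPM in adult Langerin-DTA members, 196 in adult WT and 107 in young WT. This sum holds Defb6 itself and Cst6, which was higher in adult Langerin-DTA members, as given above. It is thus no separate measure of follicle cells. For Ccl27a basal cells had 349 and 351 CPM, and the members at 2% and over 33.7 and 25 CPM, a ratio of 0.43. Hes1 stood at 383 and 503 CPM (-0.39), Pyy at 137 and 144 CPM (-0.06), B2m at 355 and 310 CPM (0.20) and Nlrc5 at 26.7 and 33.4 CPM (-0.33). None of these 4 passed 1.5-fold. Both comparisons share the adult WT library, so a low value there lowers one ratio and raises the other.

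None of 14 tested MHC class I genes and none of 10 Langerhans niche signals passed 1.5-fold, where 3.05% of all genes did, and Il34 stood at 166 CPM in adult Langerin-DTA members and 159 CPM in adult WT members (0.06, interval -0.05 to 0.18). The interval covers counting error only and does not show that the pools were alike. Cholesterol synthesis had 1 of 22 genes past 1.5-fold (Mvd, which turned to -0.51 when cells were thinned to 3000 UMIs), with 19 of 22 ratios above 0 and a median of 0.20, against -0.03 over all genes. Of 12 interferon response genes Ifi27l2a was higher (1.07) and Iigp1 lower (-1.55), of 7 chemokines Cxcl1, Cxcl12 and Ccl27a were lower, and of 17 genes of the cytokine receptor list Osmr, Lifr and Jak2 were lower. The 3 metallothioneins lay between -0.01 and 0.04. No gene of basal keratins and adhesion (14) or of the basement membrane (10) passed 1.5-fold, with medians of -0.17 and -0.15.

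**Figure D5:**
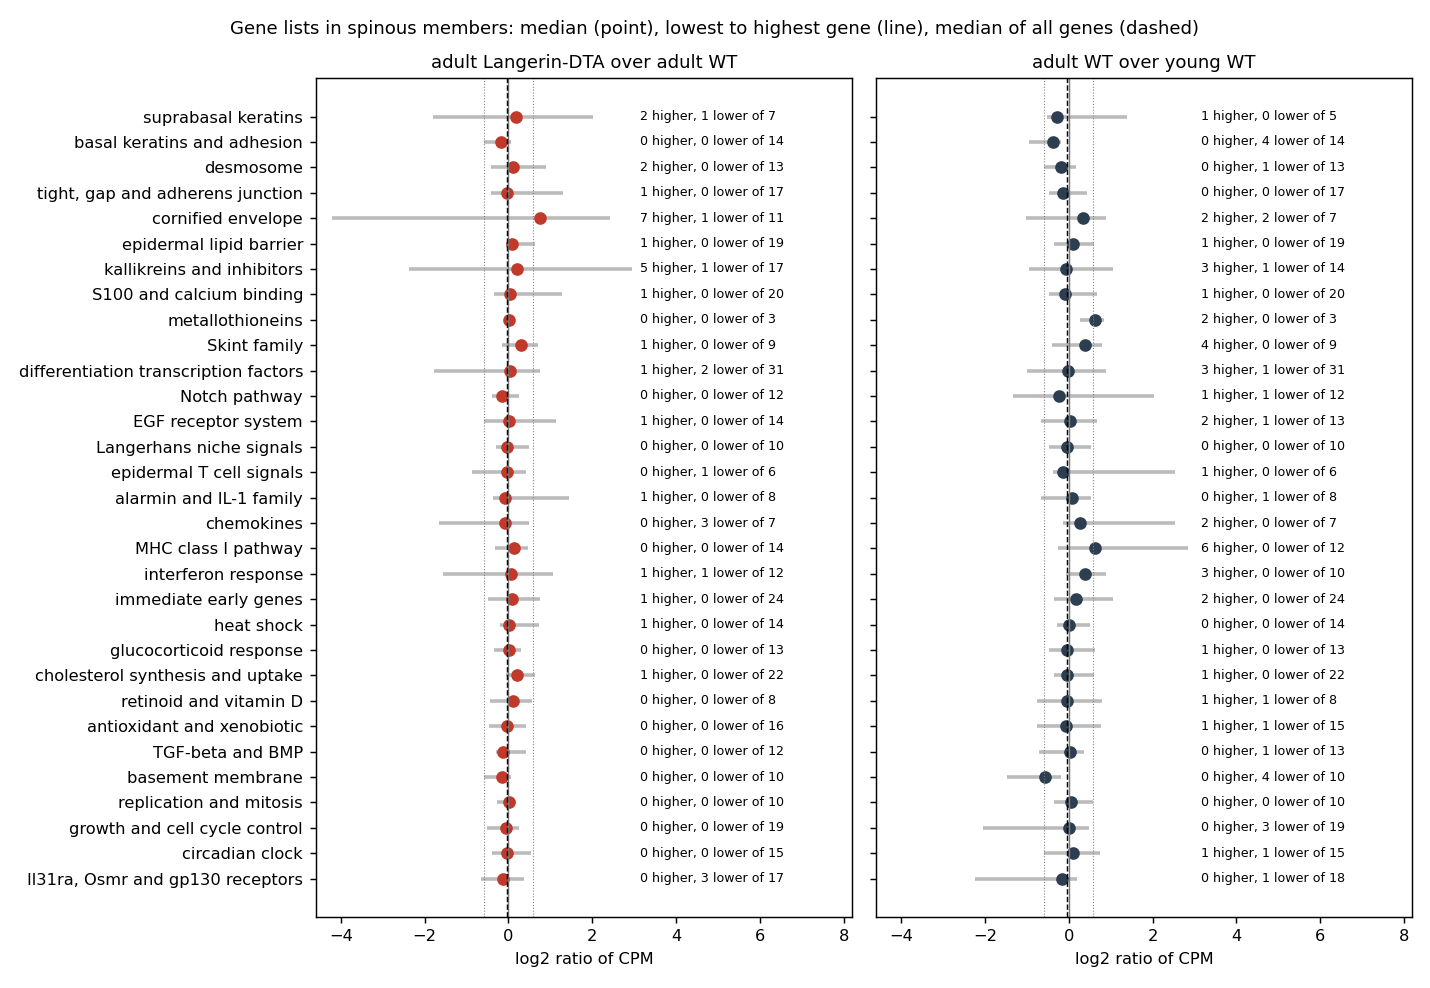
Median (point) and range (line) of the log2 ratios of each gene list with at least 3 genes tested in both comparisons, in members, for adult Langerin-DTA over adult WT and for adult WT over young WT, with the numbers of genes at least 1.5-fold higher and lower of those tested. Dashed lines mark the median of all genes, -0.03 and -0.05. The cornified envelope stands highest on the left at 0.76, and MHC class I and basement membrane genes lie on opposite sides of 0 on the right at 0.62 and -0.56. Genes needed 10 CPM in the higher library only, so the cornified envelope median depends in part on this filter.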

How the data were processed

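The files are count matrices of UMIs per gene and barcode, 1 per library, which the authors deposited. The submitters' processing notes list Cell Ranger 8.01 and the build GRCm38, while 8.0.1 stands in the file headers. How barcodes were chosen and how reads that match several genes were counted is not given in the sources used here.

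The rule was applied to the raw UMIs and the members of a library were summed. CPM is relative to all UMIs of these cells. Log2 ratios carry exact conditional 95% intervals for 2 Poisson counts, shares exact Clopper-Pearson intervals. No test was run, since each group is 1 library, and p-values are not given. A gene entered a comparison with 100 UMIs over both libraries and 10 CPM in the higher, and was counted past 1.5-fold. Named genes had 30 CPM or more in the higher library, a ratio of 1.5-fold or more, a ratio in the same direction past a smaller limit in the cells of either sex call, and 0.1 or more of the level of all other barcodes. The first 12 per direction, by the interval limit nearest 0, were taken. Xist, Tsix, Y-linked and mitochondrial genes were left out. Members of the gene lists were named beside them. There were 33 lists, and listed symbols without a match in the files were left out. The genes that mark members against basal cells were the first 15 by fold at 100 CPM or more. Ranking against granular cells as well was not possible, with 2 such barcodes.

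The members, the lists and the comparisons were chosen with earlier results of these data known. Doublets were called with scrublet in scanpy 1.11.5 and kept, with a run without them as an alternative. Cells were thinned to 3000 UMIs by seeded sampling, leaving out 15, 14 and 3 shallower members of adult Langerin-DTA, adult WT and young WT. Only the ratio and its interval were tested on simulated data, as Poisson counts with known folds and no variation between cells. Gene positions are from GENCODE M21, which held 31011 of 31053 gene IDs, and promoters from RefSeq. Python 3.11.15, numpy 2.4.6, scipy 1.17.1, pandas 2.3.3 and matplotlib 3.10.9 were used.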

Additional observations from a re-analysis of the deposited data

How the results depend on the processing

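Counts of genes past 1.5-fold depended on depth and on the filter. For adult WT over young WT, higher and lower, they were 913 and 974 with cells thinned to 3000 UMIs, 209 and 60 at 50 CPM or more, and 1727 and 1644 with no CPM minimum. The lower count also moved to 515 in male-called cells, 569 in female-called cells, 597 at 2% or more Krt1 and Krt10, 609 at 0.5 to 2%, and 498 without members that hold markers of other cell types. For adult Langerin-DTA over adult WT they were 453 and 553 thinned, 24 and 18 at 50 CPM or more, 1452 and 1609 with no minimum, 280 and 268 in male-called cells, 185 and 269 in female-called cells, and 266 and 263 at 2% or more. Fewer UMIs per group widen the counting error of each ratio. Members were 14.8%, 12.1% and 13.5% of keratinocytes in adult Langerin-DTA, adult WT and young WT at 1% or more Krt1 and Krt10, and 7.31%, 5.19% and 8.56% at 2% or more; the young WT share in female-called cells was 20.0%. Of the list medians, that of the cornified envelope in adult Langerin-DTA over adult WT turned to -0.14 at 0.5 to 2%, where Sprr1b (-0.49), Ivl (-0.35), Mboat2 (-0.10), Krt77 (-0.86) and Spink5 (-0.0425) turned too. Sprr1b was also at -0.95 in female-called cells and -0.37 without members holding a Lor UMI. At 2% or more Mid1 turned to 0.17 and Ccl27a to 0.43, and thinned to 3000 UMIs Klk5 turned to -0.24 and Mvd to -0.51. For adult WT over young WT, Tgm3 (0.55) and Tap2 (-0.32) turned when thinned. The causes were not tested. Of the values recomputed, 717 of the list medians and 740 of the gene ratios stayed within the counting interval of the main value. For lists its ends were the medians of the genes' limits. Another 85 and 401 left it with the same sign or without a call. Equal weight for the 3 ranges and leaving out members with a Lor UMI were chosen after seeing the data. No paired analysis was possible because each group is 1 pooled library.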
